A study of Mus musculus with 14 samples.

Results

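The genes described here encode the collagen hydroxylases and the collagen chaperone of the mouse, and they were chosen by symbol from the table of gene counts. They are the prolyl 4-hydroxylase subunit genes *P4ha1*, *P4ha2* and *P4ha3*, the lysyl hydroxylase genes *Plod1*, *Plod2* and *Plod3*, the prolyl 3-hydroxylase genes *P3h1*, *P3h2* and *P3h3*, and *Serpinh1*, in all 10 of the 55487 genes in the table. The rule uses their symbols and no measured value. All 10 passed the filter on low counts, and the lowest count of any of them in any library was 98.

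New collagen chains are modified in the endoplasmic reticulum before they fold into a triple helix. Prolyl 4-hydroxylases form the 4-hydroxyproline that keeps the helix stable at body temperature, lysyl hydroxylases form the hydroxylysine that carries sugars and takes part in cross-links, and prolyl 3-hydroxylases modify a small number of prolines in the chains. *Serpinh1* encodes Hsp47, which binds folded procollagen and escorts it out of the endoplasmic reticulum. The hydroxylases use iron, 2-oxoglutarate and ascorbate, and the annulus fibrosus and cartilage of the disc are tissues built mostly of collagen.

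RNA was sequenced from caudal intervertebral discs (IVDs) of 14 male mice, with 5 discs pooled from each mouse, so that each library stands for 1 mouse. The db/db mice (n = 3) are homozygous for a point mutation of the leptin receptor, and the db/+ mice (n = 3) are their heterozygous littermates, both taken at 3 months of age. The STZ-HFD mice (n = 4, C57BL/6J) were 12 weeks old at the start, ate a high-fat diet for 4 to 6 weeks, received 1 injection of streptozocin at 100 mg/kg, a toxin of pancreatic β cells, and stayed on the diet for 12 more weeks. The Con+Veh mice (n = 4, C57BL/6J), labelled as wild type, were also 12 weeks old at the start, ate standard chow, received the buffer alone and were kept for 12 weeks after it. The mutant receptor is carried in every tissue from birth, whereas the STZ-HFD model joins a diet and a toxin whose effects on the disc cannot be told apart in this design. The background strain of the db mice was not given in the sources used here. The db and STZ-HFD cohorts differ in age and schedule, so levels are compared within a cohort and set only side by side between them.

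Libraries held 16076908 to 58943169 counts, of which 28.1% to 60.2% fell on ribosomal RNA genes. *Lepr*, the leptin receptor gene, had 472, 374 and 391 counts in db/+ and 309, 534 and 375 in db/db, and a gene total does not show a point mutation. Of the markers of the nucleus pulposus, *T*, *Krt8*, *Krt18* and *Krt19* were measured while *Shh* and *Noto* stayed under the filter, and the summed level of the 6 genes ran from 26.2 CPM (counts scaled to the library total) in db/+ replicate 1 to 460.3 CPM in Con+Veh replicate 2. Markers of skeletal muscle summed to 2709 to 20040 CPM, so all libraries held muscle RNA beside RNA of the disc. The fit gave the libraries unequal weight, from 0.27 for Con+Veh replicate 1 and 0.38 for STZ-HFD replicate 1 to 3.05 for Con+Veh replicate 3. Values from a fit with equal weights are given for *P4ha1*, *Plod1*, *Plod2*, *P3h1*, *P3h2* and *P3h3* in STZ-HFD. They are not given for every gene and comparison.

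The promoters of 3 of the genes are shown because members of this group are textbook targets of the hypoxia-inducible factors, whose core binding letters are ACGTG or GCGTG, and because *Serpinh1* had the lowest unadjusted p of the group in STZ-HFD IVDs. RefSeq windows of 300 bases (250 before and 50 after the transcription start, GRCm38.p6) were found for 8 of the 10 genes, with 2 windows for *P3h1* and none matched for *Plod2* and *P3h2*. Each is printed 5′ to 3′ on the strand of the gene, and capitals mark ACGTG or GCGTG on either strand.
*P4ha1*, chr10:59323046-59323345, plus strand: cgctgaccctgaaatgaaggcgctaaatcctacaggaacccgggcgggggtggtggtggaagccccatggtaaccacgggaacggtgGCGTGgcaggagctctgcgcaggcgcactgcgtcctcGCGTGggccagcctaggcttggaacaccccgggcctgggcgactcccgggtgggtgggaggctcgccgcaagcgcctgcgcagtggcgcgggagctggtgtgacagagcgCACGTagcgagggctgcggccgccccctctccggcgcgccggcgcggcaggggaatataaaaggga
*P4ha2*, chr11:54100674-54100973, plus strand: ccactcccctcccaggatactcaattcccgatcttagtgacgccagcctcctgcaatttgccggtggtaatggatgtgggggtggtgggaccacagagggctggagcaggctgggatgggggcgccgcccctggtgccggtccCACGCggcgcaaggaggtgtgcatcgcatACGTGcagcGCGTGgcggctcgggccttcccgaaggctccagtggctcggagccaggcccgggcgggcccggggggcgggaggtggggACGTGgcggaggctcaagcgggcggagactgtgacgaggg
*Serpinh1*, chr7:99353190-99353489, minus strand: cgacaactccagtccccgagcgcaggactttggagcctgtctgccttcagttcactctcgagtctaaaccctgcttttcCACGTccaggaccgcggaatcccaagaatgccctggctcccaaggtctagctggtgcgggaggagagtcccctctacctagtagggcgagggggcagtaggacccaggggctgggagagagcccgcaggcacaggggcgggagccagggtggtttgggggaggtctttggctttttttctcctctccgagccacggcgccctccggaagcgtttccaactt
Over the 9 windows of the group, ACGTG was present in 5 and GCGTG in 5, against 19.6% and 32.4% of the 32851 promoters of the table. The letters GGGCGG stood in 7 of the 9 windows (35.7% of all promoters), CCAAT in 3 (37.4%) and the heat shock letters GAANNTTC in 1 (7.86%), that of *Plod1*. A match is a run of letters and not a measured binding site.

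Within each library, levels of the 10 genes can be ordered once counts are divided by the exonic length of the gene. *Serpinh1* stood highest in all 4 groups, with a mean of 31.4 ± 10.3 CPM per kilobase (SD) in db/+, 27.6 ± 6.96 in db/db, 16.0 ± 4.76 in Con+Veh and 10.04 ± 5.13 in STZ-HFD. *Plod2* came next in db/+ (18.2 ± 1.74 CPM per kilobase), db/db and Con+Veh, and its libraries did not overlap those of *Serpinh1* in these 3 groups. In the db groups the libraries of *Plod2* also stood clear of the gene after it, whereas in Con+Veh they overlapped those of *P4ha1*.

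In STZ-HFD IVDs the order below *Serpinh1* was different. *Plod2* stood at rank 5 with a mean of 2.80 CPM per kilobase, and the libraries of every pair of neighbouring genes overlapped there, *Serpinh1* and *P3h3* included. That overlap is between different libraries. Within each STZ-HFD library *Serpinh1* was still the highest of the 10 genes. It had 5.105, 17.08, 10.19 and 7.771 CPM per kilobase in replicates 1 to 4, and the next gene had 4.148, 8.884, 3.794 and 4.662. Neighbouring lower ranks were not separated in any group, since from rank 3 downward each gene overlapped the next one in its libraries. Some genes further apart in rank did not overlap. In db/+ *P3h2* had 6.78 to 8.59 CPM per kilobase and *P3h1* 3.79 to 4.43. *P3h1* had the lowest mean level per kilobase in db/+, Con+Veh and STZ-HFD, and *P4ha3* had it in db/db.

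**Figure D1:**
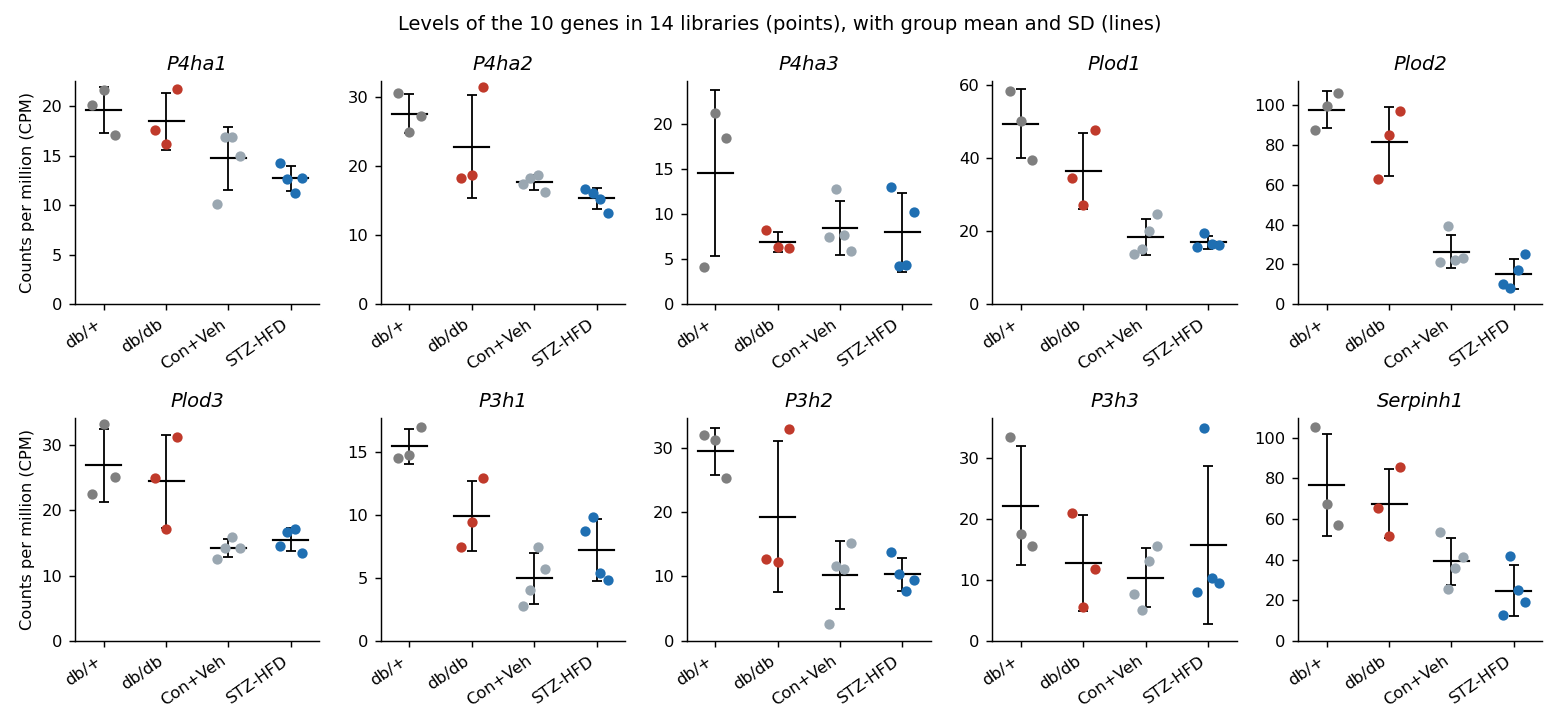
Level of each gene in CPM (vertical axes, from 0) in the 14 libraries, shown as points by group (horizontal axes), with the group mean as a bar and the SD as an error bar. *Plod1* and *Plod2* were higher in all db libraries than in all libraries of the STZ-HFD cohort, and within a cohort only *P3h1* in db/db had no library in common range with its control group.

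No gene of the group was called in db/db or in STZ-HFD IVDs. Calls required a log2 fold change of 1 or more in either direction and, in limma's test with Benjamini-Hochberg adjustment over 16915 genes, an adjusted p below 0.05. By that rule 1.66% of all genes were called in db/db against db/+ (1.23% higher and 0.432% lower), and 0 of the 10 genes were. In STZ-HFD against Con+Veh 2.61% of all genes were called (1.3% higher and 1.31% lower), and again 0 of the 10. In the difference between these responses 1.77% were called (0.816% higher and 0.952% lower), and 0 of the 10. Without the minimum on the fold change the counts for the group were again 0, against 1.93%, 3.45% and 1.77% of all genes. At an unadjusted p under 0.05 there were 2 genes in db/db (21.1% of all genes), 1 in STZ-HFD (17.9%) and 0 in the difference (17.3%). edgeR's quasi-likelihood test and DESeq2 also called 0 of the 10 genes in each comparison. edgeR's test called 0 of all genes in db/db and few in STZ-HFD, so its 0 of 10 there could hardly come out otherwise.

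The estimates for the group leaned to lower values in both models. All 10 log2 fold changes were below 0 in db/db, where 52.7% of all genes were below 0, and their median was -0.39 against -0.04 for all genes. In STZ-HFD 9 of 10 were below 0, where 52.8% of all genes were, with a median of -0.28 against -0.04. In the difference between the responses 7 of 10 were below 0 (48.5% of all genes), with a median of -0.21 against 0.03. The libraries of 1 of the 10 genes did not overlap between db/db and db/+ (25.8% of all genes), and those of 0 of 10 between STZ-HFD and Con+Veh (4.74%). With equal weights for the libraries, 10 of 10 stayed below 0 in db/db and 6 of 10 in STZ-HFD, where the median was then -0.12. After a trend of each library with GC content was removed, 8 of 10 were below 0 in db/db and 7 of 10 in STZ-HFD. Over all genes the log2 fold change in db/db ran with GC content (Spearman's rho across 16899 genes, which are not independent, -0.43), and the GC content of the group spans 43.0% in *Plod2* to 61.7% in *P3h3*.

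**Figure D2:**
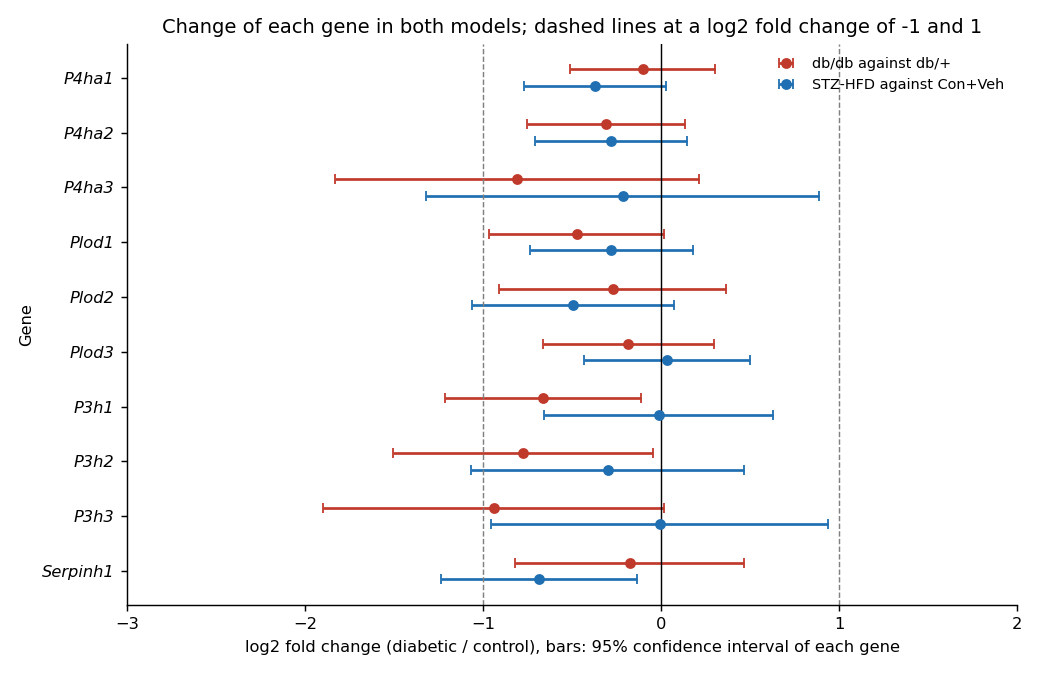
log2 fold change of each gene (horizontal axis) in db/db against db/+ and in STZ-HFD against Con+Veh, with the 95% confidence interval of the single gene from limma as a bar and dashed lines at -1 and 1. The intervals of *P3h1* and *P3h2* in db/db and of *Serpinh1* in STZ-HFD end below 0 before adjustment, and none of the 20 intervals reaches 1.

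The prolyl 4-hydroxylase α subunits differed from each other in how much they varied. *P4ha1* (ENSMUSG00000019916, chromosome 10 from 59323296 to 59373304 of GRCm38), the most widely used α subunit, had 19.6 ± 2.35 CPM in db/+ and 18.5 ± 2.87 in db/db (SD, n = 3), with overlapping libraries. In the other cohort it had 14.7 ± 3.21 CPM in Con+Veh and 12.7 ± 1.25 in STZ-HFD (SD, n = 4), again with overlap. Its log2 fold changes were -0.10 ± 0.19 (SE, limma adjusted p = 0.80) and -0.37 ± 0.19 (limma adjusted p = 0.32), and the second was -0.18 with equal weights. The interval in db/db, from -0.51 to 0.31, holds neither -1 nor 1.

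*P4ha2* (ENSMUSG00000018906, chromosome 11 from 54100095 to 54131665), an α subunit prominent in cartilage and bone cells, had 24.9 to 30.6 CPM in db/+ and 18.2, 18.7 and 31.4 CPM in db/db. In db/db 2 libraries lay below all db/+ libraries and db/db replicate 3 lay above them. In the other cohort the 4 Con+Veh libraries had 16.3 to 18.8 CPM and the 4 STZ-HFD libraries 13.3 to 16.6 CPM, and only STZ-HFD replicate 1 and Con+Veh replicate 4 crossed. The log2 fold changes were -0.31 ± 0.21 (SE, limma adjusted p = 0.42) and -0.28 ± 0.20 (limma adjusted p = 0.51).

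*P4ha3* (ENSMUSG00000051048, chromosome 7 from 100285520 to 100319699), the third α subunit, had 4.06, 21.2 and 18.5 CPM in db/+ replicates 1, 2 and 3 and 8.23, 6.28 and 6.27 CPM in db/db. The low library of db/+ set this comparison, since the other db/+ libraries stood above all db/db libraries. It had a log2 fold change of -0.81 ± 0.48 (SE, limma adjusted p = 0.35). Without db/+ replicate 1 it was -1.51 with a limma adjusted p of 0.047, which is the only fit of the 27 alternatives in which a gene of the group was called. Without db/+ replicate 2 it was -0.39 and without db/+ replicate 3 it was -0.48.

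In the STZ-HFD cohort *P4ha3* had 7.46, 12.8, 7.71 and 5.94 CPM in Con+Veh and 13.0, 4.28, 4.29 and 10.3 CPM in STZ-HFD, a log2 fold change of -0.22 ± 0.52 (SE, limma adjusted p = 0.87). The STZ-HFD libraries lay on both sides of the control group. Summed markers of notochord and nucleus pulposus stood at 26.2, 440.5 and 336.0 CPM in db/+, at 61.2, 34.7 and 69.7 CPM in db/db, at 308.3, 460.3, 328.8 and 49.8 CPM in Con+Veh, and at 269.9, 132.3, 146.0 and 334.0 CPM in STZ-HFD. The lowest *P4ha3* library of db/+ and of Con+Veh was also the lowest in these markers, and all 3 db/db libraries lay below db/+ replicates 2 and 3 in both. Within db/db and within STZ-HFD the highest *P4ha3* library was not the highest in the markers. Fewer cells of a type and less RNA per cell cannot be told apart in pooled discs, here and in each result below, and the part of the markers in the *P4ha3* values was not tested.

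The lysyl hydroxylases were led by *Plod2* in the db groups and had similar levels per kilobase in STZ-HFD. *Plod2* (ENSMUSG00000032374, chromosome 9 from 92542223 to 92608428), whose product hydroxylates lysines in the telopeptides of collagen, had 87.7, 99.6 and 106.2 CPM in db/+ and 62.7, 85.1 and 96.9 CPM in db/db. These groups overlapped, with db/db replicate 1 as the lowest library. For db/db the log2 fold change was -0.27 ± 0.30 (SE, limma adjusted p = 0.64).

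In the STZ-HFD cohort *Plod2* had 21.1, 39.0, 22.1 and 23.2 CPM in Con+Veh and 9.86, 8.24, 17.1 and 25.1 CPM in STZ-HFD. Of the STZ-HFD libraries 3 lay below all controls, and replicate 4 lay above 3 of them. The log2 fold change was -0.50 ± 0.27 (SE, 95% interval -1.06 to 0.07, limma adjusted p = 0.35), and it was -0.89 with equal weights (limma adjusted p = 0.32). Leaving out single libraries moved it between -0.95, without STZ-HFD replicate 4, and -0.23, without STZ-HFD replicate 2.

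*Plod1* (ENSMUSG00000019055, chromosome 4 from 147909753 to 147936767), which hydroxylates lysines within the helix, had 49.4 ± 9.46 CPM in db/+ and 36.5 ± 10.3 in db/db (SD, n = 3). The ranges, 39.6 to 58.4 and 27.2 to 47.6 CPM, overlapped, and the log2 fold change was -0.48 ± 0.23 (SE, limma adjusted p = 0.25). In Con+Veh it had 18.4 ± 4.97 CPM and in STZ-HFD 16.9 ± 1.71 (SD, n = 4), a log2 fold change of -0.28 ± 0.22 (limma adjusted p = 0.55) that was -0.05 with equal weights.

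*Plod3* (ENSMUSG00000004846, chromosome 5 from 136987019 to 136996648), whose product also transfers glucose to hydroxylysine that carries galactose, had the smallest estimates of the family in both models. It had 26.9 ± 5.58 CPM in db/+ and 24.5 ± 7.11 in db/db (SD, n = 3), and 14.2 ± 1.41 in Con+Veh and 15.5 ± 1.74 in STZ-HFD (SD, n = 4). The log2 fold changes were -0.18 ± 0.23 (SE, limma adjusted p = 0.68) and 0.03 ± 0.22 (limma adjusted p = 0.96), and the interval of the second ran from -0.43 to 0.50. The sign of both turned under single alternatives. *Plod3* shares 529 exonic bases with *Znhit1* on the opposite strand, and reads of this stretch cannot be assigned where counting did not use strand.

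Taken per kilobase, *Plod2* made up 54.4% to 63.3% of the summed lysyl hydroxylase level in db/+, 52.2% to 66.9% in db/db, 38.8% to 57.3% in Con+Veh and 18.8% to 46.5% in STZ-HFD. The share of *Plod3* had its median at 17.9%, 21.7%, 30.0% and 42.0% in the same order of groups. Thus the groups of each cohort overlapped in both shares, and the widest spread was that of *Plod2* in STZ-HFD. The shares were compared with no test, since they rest on the levels already given.

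**Figure D3:**
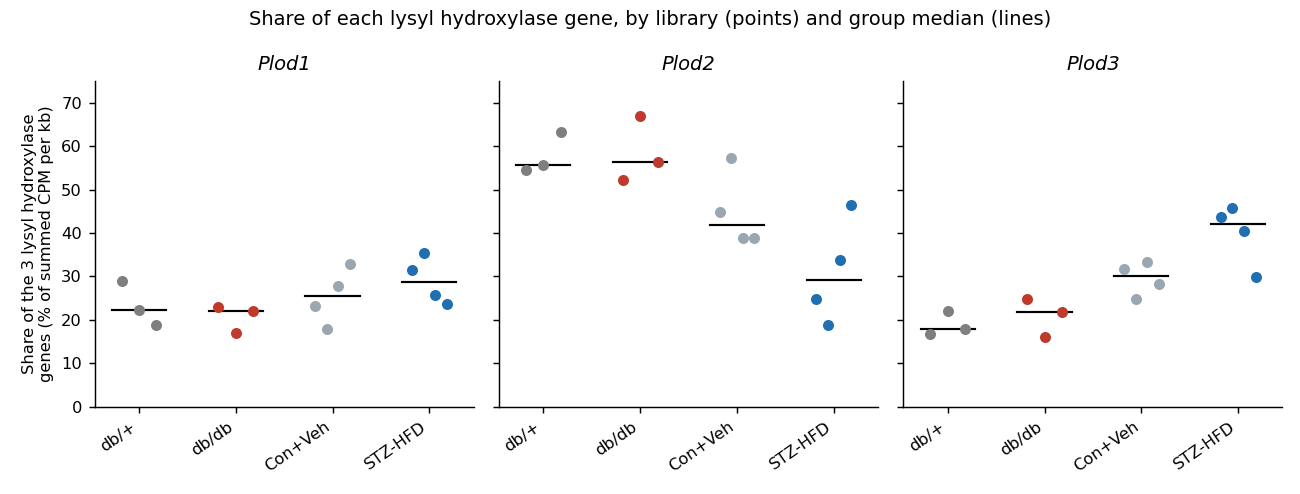
Share of *Plod1*, *Plod2* and *Plod3* in their summed level per kilobase (vertical axis, percent), with a point for each library by group and a bar at the group median. The *Plod2* median was 55.6% in db/+, 56.3% in db/db, 41.8% in Con+Veh and 29.2% in STZ-HFD, and libraries of STZ-HFD and Con+Veh overlap.

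The prolyl 3-hydroxylases held the lowest unadjusted p-values in db/db. *P3h1* (ENSMUSG00000028641, chromosome 4 from 119232915 to 119248975), the enzyme that modifies a proline of the collagen I and II chains in a complex with Crtap and cyclophilin B, had 14.6, 14.8 and 17.1 CPM in db/+ and 7.43, 9.45 and 12.9 CPM in db/db. Every db/db library lay below every db/+ library, as was so for 11.7% of all genes in that direction. This gave a log2 fold change of -0.66 ± 0.26 (SE, 95% interval -1.21 to -0.11), with a limma adjusted p of 0.16. Over all alternatives and left-out libraries it stayed below 0, between -1.08 and -0.31.

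In the other cohort *P3h1* had 2.73, 4.05, 7.43 and 5.73 CPM in Con+Veh and 8.71, 9.88, 5.41 and 4.85 CPM in STZ-HFD. The group mean was higher in STZ-HFD (7.21 ± 2.46 against 4.99 ± 2.04 CPM, SD, n = 4), whereas the weighted log2 fold change was -0.01 ± 0.31 (SE, limma adjusted p = 0.99). With equal weights it was 0.64 (limma adjusted p = 0.55). The 2 highest STZ-HFD libraries were among those given less weight, and Con+Veh replicate 3, the highest control, had the most.

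*P3h2* (ENSMUSG00000038168, chromosome 16 from 25959288 to 26105784), which modifies collagen IV and other chains, had 31.98, 31.1 and 25.2 CPM in db/+ and 12.7, 12.2 and 32.8 CPM in db/db. As with *P4ha2*, db/db replicate 3 stood above all db/+ libraries and the other db/db libraries far below them. Its log2 fold change was -0.78 ± 0.35 (SE, limma adjusted p = 0.21), and it was -1.24 without db/db replicate 3, with a limma adjusted p of 0.085. In Con+Veh the gene had 2.65, 11.7, 11.2 and 15.1 CPM and in STZ-HFD 13.8, 10.4, 7.69 and 9.37 CPM, where Con+Veh replicate 1 was far below the rest. In that cohort the log2 fold change was -0.30 ± 0.36 (SE, limma adjusted p = 0.73) and 0.32 with equal weights. *P3h2* shares 1055 exonic bases with the antisense transcript *Gm4524*.

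*P3h3* (ENSMUSG00000023191, chromosome 6 from 124841089 to 124857752), a partner of lysyl hydroxylation in skin and bone, had 33.4, 17.6 and 15.5 CPM in db/+ and 20.97, 5.48 and 11.7 CPM in db/db. The log2 fold change of -0.94 ± 0.46 (SE, limma adjusted p = 0.25) had overlapping libraries. It was -0.43 without db/db replicate 2, -0.58 without db/+ replicate 1 and -1.39 without db/db replicate 1, and it was -0.46 with the GC trend removed and -0.17 with a skeletal muscle score as a covariate. In the STZ-HFD cohort it had 7.59, 5.08, 13.0 and 15.6 CPM in Con+Veh and 8.02, 34.9, 10.3 and 9.52 CPM in STZ-HFD, so 1 library lifted the group mean. The log2 fold change was -0.008 ± 0.45 (SE, limma adjusted p = 1.00), 0.57 with equal weights and -0.98 with the muscle score.

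Summed markers of osteoblasts and osteocytes were highest in the same library as *P3h3* in db/+, db/db and STZ-HFD. They stood at 1769, 1246 and 1150 CPM in db/+, 889.2, 667.7 and 789.8 CPM in db/db, 214.4, 105.4, 347.7 and 295.0 CPM in Con+Veh, and 99.5, 237.2, 83.0 and 106.8 CPM in STZ-HFD. In Con+Veh the highest *P3h3* library was not the highest in these markers. Summed macrophage markers had the same pattern. They were highest in db/+ replicate 1 (103.7 CPM), db/db replicate 1 (101.1 CPM), STZ-HFD replicate 2 (108.5 CPM) and Con+Veh replicate 3 (149.2 CPM). The parts of bone and of macrophages in the *P3h3* values were not tested. Of the estimated transcript counts of *P3h3*, retained-intron transcripts took 80.7% in STZ-HFD replicate 2, or 326.8 of 405 estimated counts. That share ran from 1.4% of 148 estimated counts in db/db replicate 2 to 84.7% of only 50 in STZ-HFD replicate 1, so counts of the gene are not all from its coding transcripts.

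*Serpinh1* (ENSMUSG00000070436, chromosome 7 from 99345376 to 99353239, minus strand) had the lowest unadjusted p-value of the group in STZ-HFD. Its level was 53.6, 25.7, 35.8 and 41.1 CPM in Con+Veh and 12.5, 41.7, 24.9 and 19.0 CPM in STZ-HFD. Of the STZ-HFD libraries 3 lay below all controls, and replicate 2 lay above 3 of the controls. The log2 fold change was -0.69 ± 0.26 (SE, 95% interval -1.24 to -0.14), which did not pass after adjustment (limma adjusted p = 0.17). It stayed below 0 over all 27 alternatives and left-out libraries, between -1.14 and -0.46, and its lowest limma adjusted p among them was 0.054, without STZ-HFD replicate 2.

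In the db groups *Serpinh1* had 105.2, 67.6 and 57.2 CPM in db/+ and 65.2, 51.8 and 85.6 CPM in db/db. The ranges crossed, and the log2 fold change was -0.18 ± 0.30 (SE, limma adjusted p = 0.78). The difference between the responses of the 2 models was 0.51 ± 0.40 (SE, limma adjusted p = 0.56), so a different response of *Serpinh1* in the models was not shown. For the other genes this difference had limma adjusted p-values from 0.44, for *P3h1*, to 0.98, for *P4ha2*. Intervals of the difference were wide and reached -1 or below for 4 genes and 1 or above for 2 genes.

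Genes that act with the hydroxylases and the chaperone were examined as a list of 10 partners. None was called in db/db, where 6 of 10 were below 0 with a median of -0.25. In STZ-HFD 1 was called, 9 of 10 were below 0, and the median was -0.51 against -0.04 for all genes. The called partner was *Colgalt2*, which adds galactose to hydroxylysine made by the lysyl hydroxylases. It had 50.7, 30.8, 53.0 and 73.0 CPM in Con+Veh and 17.8, 15.4, 14.3 and 22.3 CPM in STZ-HFD, and every STZ-HFD library lay below every control, as for 2.77% of all genes in that direction. *Colgalt2* fell by 1.68 on the log2 scale (SE 0.24, limma adjusted p = 0.0021) and kept its call with each of the 14 libraries left out in turn and in 10 of 13 alternatives. The call was lost with a muscle or adipocyte score as a covariate and with the replicate block, although the log2 fold change stayed between -2.02 and -1.45 in all 27 fits (highest adjusted p 0.19).

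Other partners did not pass. *Crtap*, of the *P3h1* complex, had a log2 fold change of -0.74 ± 0.26 in STZ-HFD (SE, limma adjusted p = 0.13) and 0.43 ± 0.27 in db/db (limma adjusted p = 0.38). *P4hb*, the β subunit shared by all prolyl 4-hydroxylases, had -0.43 ± 0.22 in STZ-HFD (limma adjusted p = 0.32) and -0.67 ± 0.27 in db/db (limma adjusted p = 0.16). *Fkbp10*, a peptidyl-prolyl isomerase that works with *Plod2* and Hsp47, had the largest change of the list in db/db, -1.07 ± 0.32 (SE, limma adjusted p = 0.082), with no overlap of libraries. In the difference between the models the largest value of the list was that of *Fkbp7*, 1.54 ± 0.42 (SE, limma adjusted p = 0.066).

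Later steps of the route held further calls in STZ-HFD and none in db/db. Among 8 genes of propeptide processing 1 was called lower, *Pcolce2*, an enhancer of C-propeptide removal, at -1.80 ± 0.26 (SE, limma adjusted p = 0.0025), with 7 of 8 genes below 0 and a median of -0.85. *Adamts2*, of the same list, passed adjustment at -0.92 ± 0.21 (SE, limma adjusted p = 0.023) but not the minimum on the fold change, and its libraries overlapped. *Tll2*, a tolloid-like protease with 0 counts in 2 db libraries, had the largest estimate of this list, -1.93 ± 1.38 (SE, limma adjusted p = 0.51). It had 0.027, 0.35, 34.7 and 37.6 CPM in Con+Veh and 1.72, 1.57, 3.31 and 7.84 CPM in STZ-HFD, so the controls lay on both sides. Among 11 fibrillar collagen chains 1 was called lower, *Col2a1*, at -1.84 ± 0.38 (SE, limma adjusted p = 0.016), with 10 of 11 below 0 and a median of -0.54. Among 9 genes of procollagen export 1 was called higher, *Sar1b*, of the COPII coat, at 1.21 ± 0.28 (SE, limma adjusted p = 0.027), with a median of 0.006. All 3 calls were lost without Con+Veh replicate 3 and without Con+Veh replicate 4. Those of *Sar1b* and *Col2a1* were also lost without STZ-HFD replicate 3, and that of *Sar1b* without STZ-HFD replicate 4. All 3 were lost as well with edgeR's quasi-likelihood test, equal weights, no filter on low counts, the replicate block and the adipocyte score.

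In db/db the largest estimates of these lists were -1.07 for *Adamts14* (limma adjusted p = 0.16), -1.17 for *Col11a2* (0.094) and -0.74 for *Sec13* (0.24).

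Enzymes of the same dioxygenase class that act outside collagen were not called in either model. Of 5 such genes 4 were above 0 in STZ-HFD (median 0.49) and 2 in db/db (median -0.01). *Hif1an* had the largest estimate in STZ-HFD, 1.00 ± 0.36 (SE, limma adjusted p = 0.14), and *Egln2* in db/db, -1.08 ± 0.28 (limma adjusted p = 0.052). *Egln2*, which hydroxylates hypoxia-inducible factors, differed between the models by -1.59 ± 0.38 (SE, limma adjusted p = 0.043), and *Pcolce2* by 1.84 ± 0.45 (limma adjusted p = 0.048), calls kept in 5 and 4 of 26 alternative fits. Of the ascorbate transporters, *Slc23a1* and *Slc23a2*, both were below 0 in both models, and neither passed, with *Slc23a1* at -1.38 in db/db (limma adjusted p = 0.14) and -1.29 in STZ-HFD (limma adjusted p = 0.21).

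**Figure D4:**
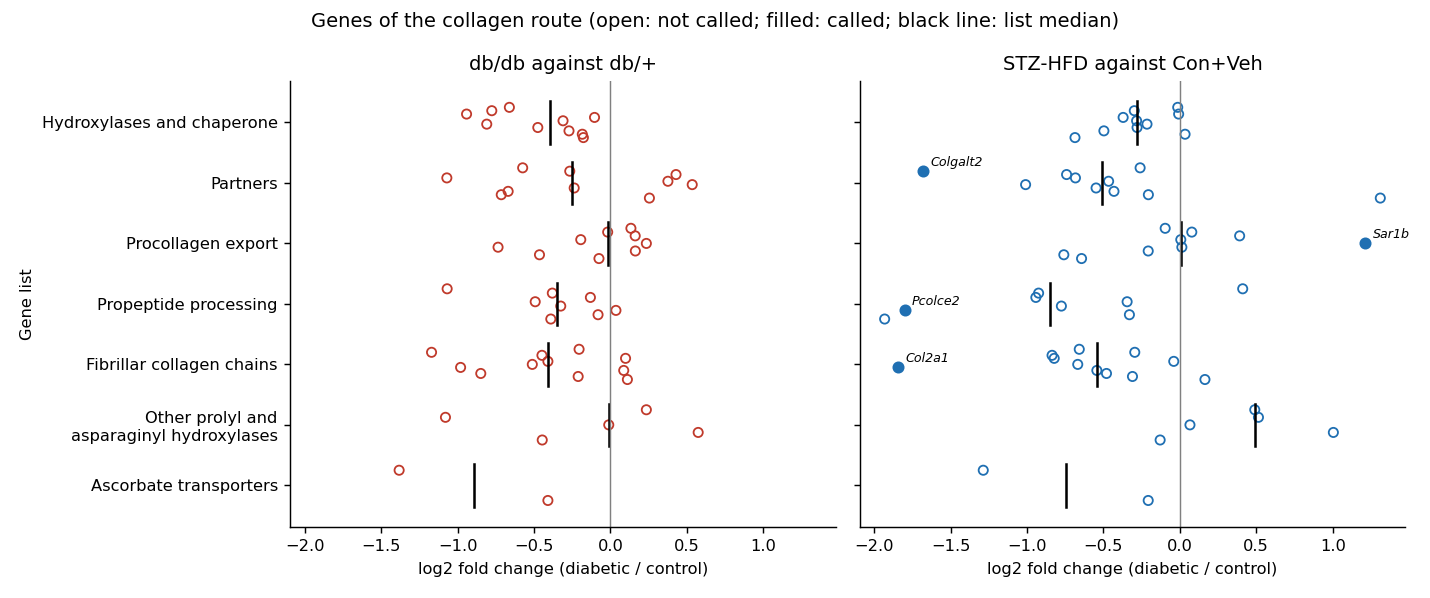
log2 fold change (horizontal axes) of every gene of the group and of 6 lists around it (vertical axis) in db/db against db/+, left, and STZ-HFD against Con+Veh, right, with the list median as a black line. Filled points are genes called in the comparison, namely *Colgalt2*, *Pcolce2*, *Col2a1* and *Sar1b* in STZ-HFD, and all points in db/db are open.

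The genes of the group were set beside the collagen they modify. The 10 genes together summed to 348.6 to 408.6 CPM in db/+, 249.6 to 378.2 in db/db, 148.8 to 176.8 in Con+Veh and 127.1 to 174.4 in STZ-HFD. The 11 fibrillar chain genes summed to 26910 to 35960 CPM, 14030 to 28790 CPM, 2237 to 4266 CPM and 1240 to 3431 CPM in the same order. The first sum was therefore 0.97% to 1.52% of the second in db/+ and 1.06% to 1.94% in db/db, and 4.14% to 7.28% in Con+Veh and 5.08% to 10.2% in STZ-HFD. Within each cohort the ranges of this ratio overlapped between diabetic and control libraries. Between cohorts they did not, and age, schedule and any other difference between the cohorts cannot be told apart there.

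**Figure D5:**
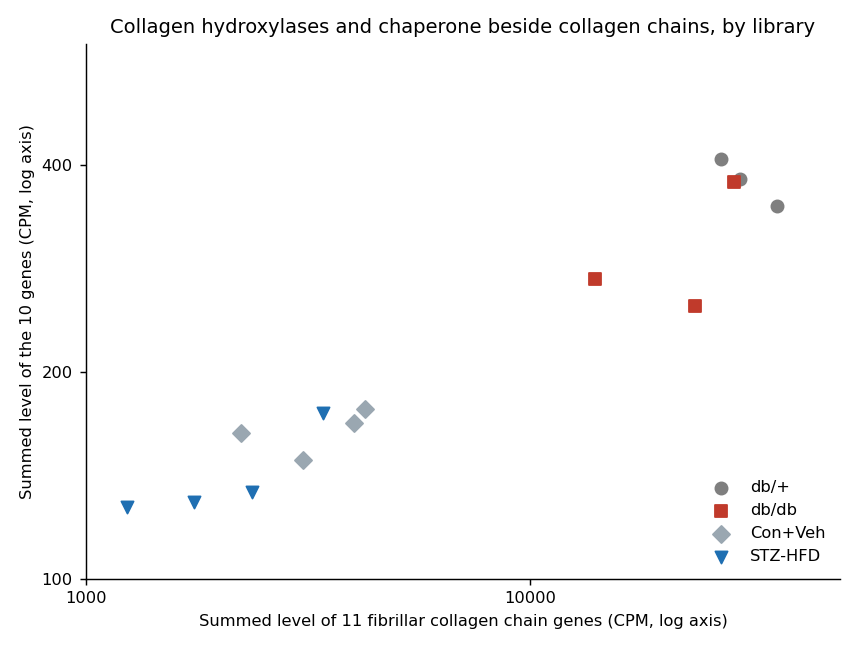
Summed level of the 10 genes (vertical axis, CPM, log scale) against that of 11 fibrillar collagen chain genes (horizontal axis, CPM, log scale), with a point for each library. The db libraries sit between 14030 and 35960 CPM of collagen chains and the others between 1240 and 4266 CPM, with overlap of diabetic and control libraries inside each cohort.

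Side by side, all 10 genes had a higher mean in db/+ than in Con+Veh. The ratio of the control means ran from 1.33 for *P4ha1* to 3.71 for *Plod2*, and for 8 of the 10 genes, all but *P4ha3* and *P3h3*, the libraries of db/+ and Con+Veh did not overlap, as was so for 9.36% of all genes in that direction. *Plod1* and *Plod2* were the only genes of the group whose libraries stayed apart when diabetic mice were included, at 27.2 to 58.4 against 13.7 to 24.7 CPM and at 62.7 to 106.2 against 8.24 to 39.0 CPM. Over all genes 2.48% stood apart in that direction. The cohorts also stood apart in the share of counts on ribosomal RNA genes, 28.1% to 39.7% in db libraries and 44.4% to 60.2% in the others. Counts outside these genes ran from 27912584 to 35031712 in db libraries and from 8945906 to 23430079 in the others. No test was made of the differences in level.

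Markers of other cell types moved with the groups. In db/db all 8 skeletal muscle markers were below 0 and 1 (*Myh1*) was called lower, with summed levels of 2709 to 4411 CPM against 4303 to 8365 CPM in db/+. In STZ-HFD all 8 were above 0 and 2 (*Acta1* and *Myh1*) were called higher, at 6489 to 20040 CPM against 7148 to 9840 CPM in Con+Veh. Of 6 chondrocyte markers tested, 4 (*Acan*, *Col2a1*, *Comp* and *Sox9*) were called lower in STZ-HFD, where they summed to 582.0 to 1245 CPM against 1330 to 3120 CPM. Osteoblast markers had 2 calls (*Ibsp* and *Alpl*) and markers of tendon and annulus fibrosus 2 (*Fmod* and *Mkx*), all lower in STZ-HFD. The lists were mixed, as 2 of 6 osteoblast markers and 1 of 5 markers of tendon and annulus fibrosus were above 0 there. In db/db 5 of 6 chondrocyte and 5 of 6 osteoblast markers were below 0 (medians -0.66 and -0.79), with 0 called. Chondrocyte markers summed to 4873 to 13150 CPM in db/db against 12720 to 22790 CPM in db/+. Osteoblast markers summed to 667.7 to 889.2 CPM against 1150 to 1769 CPM, without overlap. Of the 5 markers of tendon and annulus fibrosus 3 were above 0 in db/db. Of 5 macrophage markers all were below 0 in STZ-HFD (median -0.75) and 1 (*Cd68*) was called lower, with summed levels of 50.1 to 108.5 CPM against 60.4 to 149.2 CPM. In db/db 3 of 6 adipocyte markers (*Adipoq*, *Plin1* and *Fabp4*) were called higher, with 5 above 0 and 1 below. All 6 adipocyte markers were above 0 in STZ-HFD, with 0 called. In db/db all 4 tested markers of notochord and nucleus pulposus were below 0 (median -1.55) with 0 called.

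The values of the group with these scores in the fit are as follows. With the skeletal muscle score as a covariate 0 of the 10 genes were called, 9 of 10 log2 fold changes were below 0 in db/db (median -0.37) and 8 of 10 in STZ-HFD (median -0.32). The medians over all genes were then -0.036 and -0.033. With the adipocyte score 0 were called, 10 of 10 were below 0 in db/db (median -0.32) and 8 of 10 in STZ-HFD (median -0.30). The medians over all genes were then -0.065 and -0.055. Both scores also lowered the calls over all genes, to 0 in db/db with the adipocyte score, so the counts of 0 for the group say little. The part of chondrocyte, bone, tendon, macrophage and nucleus pulposus RNA in the values of the group was not tested.

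After the group means were taken off, the genes whose log2 levels ran most like those of the group over the 14 libraries were found across all 16915 genes. For *P4ha1* these were *BC031181* (Pearson's r = 0.97), *Pemt* and *Sdf2l1*, the last an endoplasmic reticulum protein. For *Plod2* they were *Zhx1* (r = 0.975), *Klf7* and *Gsk3b*, for *Serpinh1* *Fbxo42* (r = 0.97), *Gpc1* and *Dync1h1*, and for *P3h1* *Fxyd3* (r = 0.97), *Scamp5* and *Rnaseh2c*. *BC031181* was also among the most alike for *P3h2*, after *Wif1* (r = 0.96). These are the highest of many correlations over few libraries that share depth and tissue make-up, and they are given as a description.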

How the data were processed

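RNA-seq of pooled caudal discs was analysed in 14 samples, grouped as labelled: db/db and db/+ (3 each), STZ-HFD and Con+Veh (4 each). The authors aligned reads with STAR 2.7.9a1 to Ensembl release 101 (GRCm38; versions as printed) and deposited whole-number gene counts from featureCounts 2.0.32, without normalization, and estimated counts per transcript from Salmon 1.5.23. The strand setting was not given in the sources used here. Of 55774 lines 287 repeated a gene with identical values and were used once. The estimated counts were used only to describe *P3h3*. Tests of transcript shares and the transcript-sum alternative were not run, because rows of the transcript table cover all annotated transcripts for only 3 of the 10 genes, and other transcripts were not analysed here.

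Genes with over 1 CPM in at least 3 libraries (16915) entered limma 3.58.1 voomWithQualityWeights with edgeR 4.0.16 TMM factors in R 4.3.3, after the study's methods, with a mean per group, contrasts within each cohort and their difference, and Benjamini-Hochberg adjustment in each contrast. CPM use TMM-scaled totals. Alternatives were DESeq2 1.42.0, edgeR's quasi-likelihood test, equal weights, RLE factors, other filters, each model alone, removal of ribosomal RNA genes or of GC trends over 20 bins, cell scores, the replicate block and single libraries left out. Positions and lengths are from GENCODE M21. The tests were tested on simulated data. At these depths 3 counts equal 0.0509 to 0.187 CPM, counting error only. Libraries are separate mice by their labels, and the 18 replicate pairs differed beyond counting noise. The members and gene lists were chosen with earlier results of these data known. Genes were named by rule: all 10 members, the called genes and, within each model, the largest changes of the 6 pathway lists, any gene of a list of at most 10, and the most alike genes per member. Among cell markers, those called within a model are named.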

Additional observations from a re-analysis of the deposited data

Results flagged for a closer look

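*Plod2* in Con+Veh replicate 2 stood apart from its group, at 39.0 CPM against 23.2 CPM in the nearest of the other 3 libraries. Its gap to that library was 0.883 of the range of the group, above the value of 0.829 that Dixon's test sets for 4 samples. Without this library the log2 fold change of *Plod2* in STZ-HFD stayed below 0.

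*P3h3* in STZ-HFD replicate 2 stood apart at 34.9 CPM against 10.3 CPM in the nearest library, a gap of 0.917 of the range. The same library held the highest summed level of osteoblast markers in its group (237.2 CPM) and a retained-intron share of 80.7%. It was also the highest of its group in summed markers of macrophages (108.5 CPM) and of tendon and annulus fibrosus (448.2 CPM). In all, 20 groups of 4 libraries were examined and 2 had such a library, and chance gives about 1 in 20 groups.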

How the results depend on the processing

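Under the alternatives 0 genes of the group were called, except *P4ha3* in db/db without db/+ replicate 1, so the number ran from 0 to 1 for db/db with single libraries left out. The number of all genes called moved much more. Against 281 genes for db/db and 441 for STZ-HFD, edgeR's quasi-likelihood test called 0 and 29 (1891 and 2136 at an unadjusted p under 0.05), equal weights gave 9 and 19, no filter on low counts 534 and 130, each model fitted alone 436 and 287, the muscle score 118 and 116, and the adipocyte score 0 and 19. In db/db the GC trend removed gave 111, and in STZ-HFD filterByExpr gave 217, DESeq2 277 and the omission of both libraries whose names share an ending 244. With single libraries left out the counts ran from 21, without db/+ replicate 2, to 392, without Con+Veh replicate 2, for db/db (at most 143 without a db library), and from 17, without Con+Veh replicate 3, to 642 for STZ-HFD (18 without Con+Veh replicate 4, 18 without STZ-HFD replicate 3 and 164 without STZ-HFD replicate 4). The cause was not tested.

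The replicate numbers of the labels gave no sign of pairing, since same-numbered libraries correlated at -0.09 and -0.11 on average against 0.05 and 0.04 for others. With so few libraries, and with group means taken off, these correlations cannot exclude a pairing of the mice. With the replicate block the calls numbered 1484 for db/db and 6 for STZ-HFD, and 0 of the group in each. In db/db the block gave limma adjusted p-values of 0.016 for *P3h1*, 0.014 for *P3h2* and 0.031 for *P3h3*, at log2 fold changes of -0.77, -0.94 and -0.79.

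Signs turned as follows, and the cause was not tested. In STZ-HFD *P3h1* and *P3h3* turned to 0.54 and 0.61 with edgeR's quasi-likelihood test, 0.57 and 0.63 with DESeq2, 0.64 and 0.57 with equal weights, 0.01 and 0.02 with RLE factors, 0.027 and 0.055 with filterByExpr, 0.11 and 0.26 with no filter, 0.04 and 0.032 with each model alone, 0.22 and 0.15 without the libraries that share a name ending, and 0.088 and 0.21 with the GC trend removed. *P3h3* was 0.01 with ribosomal RNA genes removed. *P3h2* turned to 0.027, 0.055 and 0.32 with edgeR, DESeq2 and equal weights. With the muscle score *P3h1* was 0.36, *P4ha3* 0.076 and *Plod3* -0.24, and with the adipocyte score *P4ha3* was 0.14. In db/db *Plod3* and *Serpinh1* were 0.23 and 0.18 with the GC trend removed, and *Serpinh1* was 0.20 with the muscle score. In the difference between the models the muscle score gave 0.30 for *Plod1*, -0.084 for *Plod2*, 0.18 for *Plod3* and 0.81 for *P3h3*, the GC trend removed gave 0.12 for *P4ha2* and 0.16 for *Plod3*, and *P4ha2* was 0.002, 0.036 and 0.011 with filterByExpr, no filter and ribosomal RNA genes removed.

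With single libraries left out, log2 fold changes ran from -0.38 to 0.056 for *Plod3* and from -0.37 to 0.11 for *Serpinh1* in db/db. In STZ-HFD they ran from -0.61 to 0.12 for *P4ha3*, -0.042 to 0.15 for *Plod3*, -0.18 to 0.39 for *P3h1* and -0.32 to 0.35 for *P3h3*. In the difference they ran from -0.29 to 0.11 for *P4ha2*, -0.04 to 0.68 for *Plod2* and -0.42 to 0.018 for *Plod3*. All other results of the group kept their sign in every fit. With 3 or 4 mice a group, the intervals of 4 genes in each model still hold a log2 fold change of -1, so a change of that size is not excluded for them.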
